A study of Rattus norvegicus with 7 samples.

Results

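Lenses with nuclear opacity were compared with lenses with cortical opacity in the Ihara Cataract Rat (ICR/Ihr), an inbred strain in which cataract is inherited and appears spontaneously with age. Total RNA of whole lenses of male rats was measured at 7 ages on GeneChip Rat Gene 2.0 ST microarrays, 1 array an age. Per the labels, the nuclear opacity lenses came from 14- and 18-week-old rats (2 arrays) and the cortical opacity lenses from 8- and 10-week-old rats (2 arrays). These 4 of the 7 arrays were chosen by their labels alone. The other arrays were 1 of posterior subcapsular opacity at 12 weeks and 2 of lenses with no cataracts at 2 and 4 weeks. All lenses were of the same strain, so that each group carries the alleles that lead to cataract, and lenses of a strain without cataract were not analysed here. The labels do not say how many animals or lenses an array stands for, nor whether the arrays came from separate litters. Every nuclear opacity lens was older than every cortical opacity lens, so that the stage and the age cannot be told apart, and the spread within a stage is a spread between ages.

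The lens grows through life by laying new fibre cells around older ones. A single layer of epithelium covers its front, and epithelial cells at the equator elongate into fibres, which fill with crystallins and then lose their nuclei and organelles. The fibres made first form the nucleus of the lens and the younger ones form the cortex. New RNA of a lens is therefore made in the epithelium and the young fibres, since the old fibres of the nucleus no longer transcribe. In whole lenses, fewer cells of a type and less RNA per cell cannot be told apart.

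Values are log2 signals after RMA, a method that corrects background, normalizes the arrays to each other and summarizes the probes of a transcript, so that a difference of 1 is 2-fold. A gene was tested if it reached a log2 signal of 5 on at least 1 of the 7 arrays, which 5168 of 18166 named genes did. Of these, 4840 reached it on an array of the nuclear or cortical stage. Between 4146 and 4595 named genes reached 5 on an array. The median difference between nuclear and cortical opacity over all tested genes was 0.025. The fibre marker Mip was at 12.16 and 12.43 in nuclear opacity and 12.66 and 12.47 in cortical opacity. The epithelial marker Pax6 was at 7.04 and 6.99 in nuclear opacity and 6.99 and 6.89 in cortical opacity. No marker of photoreceptors (0 of 14), blood cells (0 of 6) or endothelium (0 of 9) reached 5 on any array.

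Markers of tissue next to the lens were not even between the 4 arrays. Optc, which encodes opticin, a proteoglycan made by the ciliary body, was at 6.56 and 6.68 in nuclear opacity, against 6.74 and 4.87 in cortical opacity. Fbn1, the fibrillin of the zonular fibres, was at 5.36 and 5.07 in nuclear opacity, against 6.01 and 3.82 in cortical opacity. The 10-week array was thus the low one for both. Of 10 tested ciliary body and zonule markers, 4 were higher on both nuclear arrays (40.0%, against 23.0% of all tested genes). On both nuclear arrays 1 was lower (10.0%, against 14.6% of all tested genes). The median difference was 0.351, which became -0.186 without the 10-week array. The summed linear signal of that list was 517.8 to 542.5 in nuclear opacity and 383.9 to 656.0 in cortical opacity. In the list of pigment cell markers (5 tested) 0 were above and 3 below (60.0%, against 14.6% of all tested genes), with a median difference of -0.374. Its summed linear signal was 2649.7 to 2897.6 in nuclear opacity and 3382.4 to 3631.6 in cortical opacity. Most of that sum was Ptgds, which lens epithelium also makes (11.33 and 11.19 in nuclear opacity, 11.70 and 11.57 in cortical opacity), and the defining markers Tyr (1.62 on each of the 4 arrays) and Dct (2.49 and 2.55 in nuclear opacity, 2.84 and 2.95 in cortical opacity) were near the bottom of the scale. The part of these tissues in the results below was not tested.

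A single gene, Emp1, passed the test between the stages. Emp1 encodes epithelial membrane protein 1, a protein with 4 passes through the membrane, of the family of peripheral myelin protein 22. Its signal was 5.15 and 5.38 in nuclear opacity, against 3.04 and 3.07 in cortical opacity. The stages did not overlap, and the earlier lenses were also low, at 3.45 and 3.37 with no cataracts. The 12-week array was at 3.62, far below the nuclear arrays. Emp1 rose by 2.21 ± 0.11 on the log2 scale in nuclear opacity (SE, 2 arrays a stage), with an adjusted p of 0.0175 (limma, Benjamini-Hochberg over all tested genes). The cortical values lie near the bottom of the scale, so that no fold is given. No array outside nuclear opacity reached 5, so that Emp1 entered the test only through the arrays in which it was high. With no floor on the signal its adjusted p was 0.181. The call was lost when any 1 array of the clear, cortical or nuclear lenses was left out, while the difference stayed between 2.10 and 2.33. Leaving out either clear array gave the same fit as only the 4 arrays, since a single clear array adds no spread. The 12-week array, the only one of its stage, was not left out. Over all alternatives that tested Emp1 its adjusted p was between 0.00214 and 0.484.

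That was 1 higher gene of 5168 (0.0193%), and no gene passed in the lower direction (0%). At an unadjusted p under 0.05, 348 genes were higher and 228 lower in nuclear opacity. The second smallest adjusted p was 0.0812, for Nr4a1, and the smallest among lower genes was 0.112, for Mobp. The genes below are therefore described by their values on each array and not called changed, and the counts of list members without overlap are read against the shares over all tested genes given next. Both nuclear arrays lay above both cortical arrays for 1189 genes (23.0%) and below them for 754 genes (14.6%). The direction of this split rested on small differences: 61.2% of the genes without overlap were higher in nuclear opacity with the values as deposited, 52.2% after quantile normalization and 42.5% after centring each array on its median. With a difference of 2-fold or more besides, 32 genes were higher (0.619%) and 22 lower (0.426%). Like Emp1, the higher genes Serpina3n, Angptl4, Slc1a2, Kcne4, Lifr, Klf4, Gpha2 and Sik1 reached 5 only on nuclear arrays. They entered the test only through arrays in which they were high, so that the floor in part sets the number of higher genes. These counts were 55 and 13 without the 8-week array, 37 and 52 without the 10-week array, 32 and 27 without the 14-week array, and 49 and 34 without the 18-week array. Just inside the 2-fold line were Ccn2 (1.003) and Idh1 (-1.01), and just outside it Cpt2 (-0.99) and Crygb (-0.98).

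**Figure D1:**
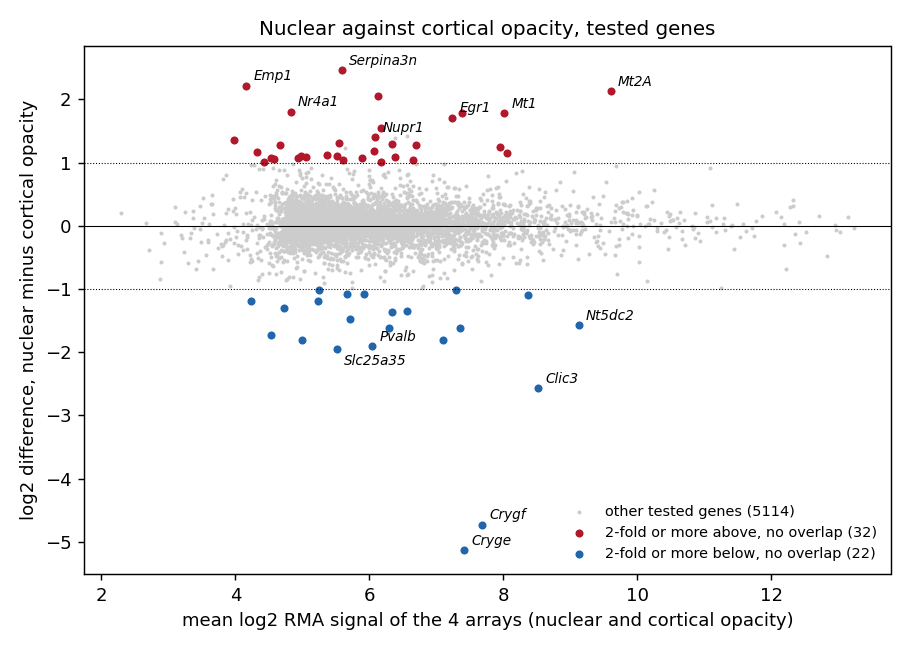
Log2 difference between nuclear and cortical opacity (mean of 2 arrays each) against the mean log2 RMA signal of the 4 arrays, for the 5168 tested genes. Coloured points are the 32 higher and 22 lower genes of 2-fold or more whose stages did not overlap, dotted lines mark 2-fold, and Cryge and Crygf lie far below all other genes.

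The arrays of a stage differed from each other too. The median absolute difference was 0.151 between the 18- and 14-week arrays and 0.151 between the 10- and 8-week arrays. It was 0.141 between the means of the 2 stages, which average 2 arrays each and so vary less than single arrays. On the 18-week array 9 genes were 2-fold or more above the 14-week array and 26 were 2-fold or more below it. On the 10-week array 3 genes were 2-fold or more above the 8-week array and 61 below it. Of the 32 higher genes of 2-fold or more, 25 were further from cortical opacity at 14 weeks than at 18 weeks. Of the 22 lower genes, 9 were.

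Arrays outside the comparison placed these 54 genes in the course of age. The 12-week lens was above both clear lenses for 29 of the 32 higher genes and below them for 1, where 18.9% of all tested genes were above. It was below both clear lenses for 20 of the 22 lower genes and above them for 1, where 58.0% of all tested genes were below. The median difference between the 12-week lens and the clear lenses was 1.09 for the higher genes and -1.62 for the lower genes, against -0.133 over all tested genes. The highest of the 7 arrays was a nuclear one for 24 of the higher genes and the 12-week one for the other 8. For the genes that reached 5 only on nuclear arrays, the floor fixed this in advance. The lowest was a nuclear array for all 22 lower genes. Given how the genes were chosen, no cortical array could be the highest for a higher gene or the lowest for a lower gene. Each array after 4 weeks was below the one before for 9 of the lower genes, and above the one before for 1 of the higher genes. The choice of genes set part of these runs too. The shares of all tested genes with such extremes or runs were not counted.

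Several genes were high on both nuclear arrays with little spread. Clu encodes clusterin, an extracellular chaperone that binds misfolded proteins. It was at 11.62 and 11.49 in nuclear opacity, against 10.55 and 10.71 in cortical opacity, a difference of 0.92 ± 0.11 (adjusted p = 0.174, limma). Its 2 clear lenses lay at 10.56 and 10.59 and the 12-week lens, at 11.11, lay between the stages. Rcan1, which encodes a regulator that binds the phosphatase calcineurin, was at 6.66 and 6.68 in nuclear opacity, against 5.36 and 5.61 in cortical opacity (1.19 ± 0.15). Here the 12-week lens, at 6.90, was the highest of all. Nupr1, a stress-induced nuclear protein, was at 6.82 and 6.77 in nuclear opacity, against 5.10 and 5.68 in cortical opacity (1.40 ± 0.20). Ntn4 encodes netrin-4, a laminin-related protein of basement membranes such as the lens capsule. Its signal was 5.94 and 6.19 in nuclear opacity, against 4.92 and 5.01 in cortical opacity (1.10 ± 0.15). The clear lenses, at 4.01 and 4.30, lay below the cortical lenses, and the 12-week lens, at 5.01, was still at the cortical level.

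Other genes of small p and small spread were Litaf (0.90), an endosomal membrane protein, and Psmf1 (0.84), an inhibitor of the proteasome. Nampt (0.80), the rate-limiting enzyme of NAD salvage, and Pdha1 (0.69), a subunit of pyruvate dehydrogenase, belong to energy metabolism. Arhgap21 (0.62), a GTPase-activating protein, and Dapl1 (0.95) complete the group. Pdha1 was at 9.21 and 9.19 in nuclear opacity, against 8.45 and 8.56 in cortical opacity. None of these passed the test, with adjusted p-values between 0.17 and 0.19 (limma).

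The 2 metallothioneins were among the largest differences. Metallothioneins are small cysteine-rich proteins that bind zinc and copper, and their genes are switched on by the zinc-sensing factor MTF1 through metal response elements. Mt2A was at 11.28 and 10.06 in nuclear opacity, against 9.21 and 7.87 in cortical opacity (2.13 ± 0.64, adjusted p = 0.374, limma). Mt1 was at 9.16 and 8.65 in nuclear opacity, against 8.16 and 6.09 in cortical opacity (1.78 ± 0.69). The stages did not overlap for either gene, and in both the 10-week array was below the 8-week array. Both were also higher in nuclear opacity on a second transcript cluster of the array, by 1.92 for Mt2A and 1.39 for Mt1. The second cluster of Mt1 was dim, under 5 on every array. In the clear lenses Mt2A was at 6.10 and 7.16, below all later arrays, and Mt1 was at 5.66 and 6.37, close to its 10-week value. The other 3 tested members of the list, the factor Mtf1 (-0.04) and the zinc transporters Slc30a5 (-0.20) and Slc39a1 (-0.11), overlapped between the stages. The sequences of the 2 metallothionein genes before their starts (RefSeq, GRCr8) are shown because the genes lie close together on chromosome 19 and had the same pattern over the arrays. Capitals mark the core of the metal response element, TGCACNC or TGCGCNC on either strand.
Mt2A, chr19:10838709-10838958, minus strand: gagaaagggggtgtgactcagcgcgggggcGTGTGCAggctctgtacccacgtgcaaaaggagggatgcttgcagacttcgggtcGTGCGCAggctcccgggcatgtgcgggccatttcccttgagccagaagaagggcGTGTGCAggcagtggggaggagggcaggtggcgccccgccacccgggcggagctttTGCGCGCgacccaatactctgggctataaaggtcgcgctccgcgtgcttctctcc
Mt1, chr19:10832976-10833225, minus strand: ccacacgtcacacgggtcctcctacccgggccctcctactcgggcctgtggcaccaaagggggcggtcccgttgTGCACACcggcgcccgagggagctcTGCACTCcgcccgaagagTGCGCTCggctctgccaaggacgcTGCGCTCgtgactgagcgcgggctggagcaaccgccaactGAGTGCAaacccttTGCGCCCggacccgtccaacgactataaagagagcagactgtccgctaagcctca

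The core was found 4 times before Mt2A and 6 times before Mt1. Of 33469 windows of 250 bases before rat gene starts, 20.6% held it at least once, and so did the windows of all 5 tested members of the list, 3 of which overlapped between the stages.

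**Figure D2:**
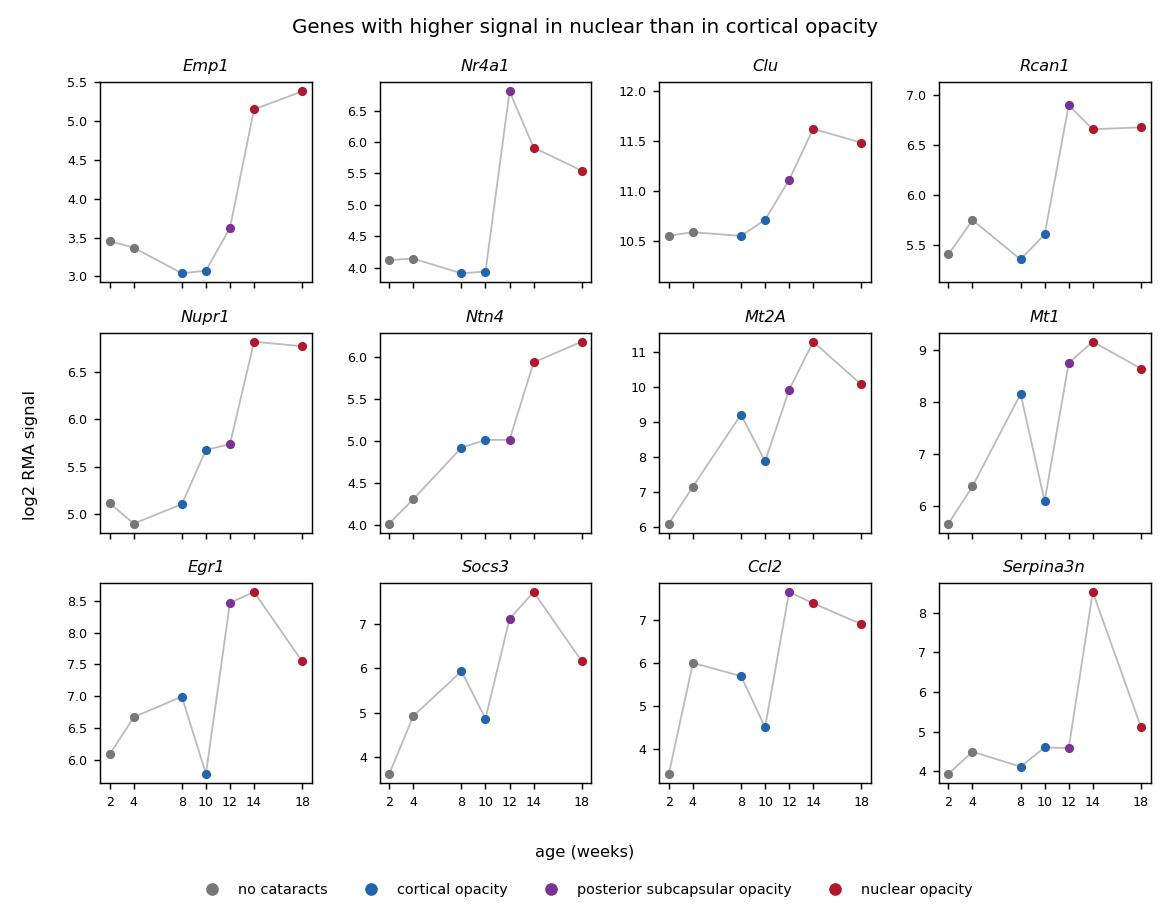
Log2 RMA signal (each vertical axis on its own scale) of 12 genes against age in weeks, 1 array per age, coloured by stage. Emp1 was high on the 2 nuclear arrays alone. Ntn4 was higher in the cortical than in the clear lenses and highest on the nuclear arrays. Nr4a1, Rcan1 and Ccl2 were highest at 12 weeks, and Serpina3n was high at 14 weeks alone.

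Immediate early genes, which cells switch on within minutes of a stimulus and without new protein synthesis, were the list with the most members apart. All 22 tested members had a higher mean in nuclear opacity, and for 19 of them both nuclear arrays lay above both cortical arrays, against 23.0% of all tested genes. The median difference was 1.02, against 0.025 over all tested genes. It was 0.605 without the 10-week array and 0.641 without the 14-week array. None of the 22 passed the test. Of the 22, 11 were 2-fold or more higher without overlap.

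Nr4a1, an orphan nuclear receptor and transcription factor, had the largest difference and the smallest p among them. It was at 5.91 and 5.54 in nuclear opacity, against 3.91 and 3.94 in cortical opacity (1.80 ± 0.14, adjusted p = 0.0812, limma). The clear lenses were at 4.12 and 4.14 and the 12-week lens at 6.80, the highest of the 7. With other scalings, a floor of 6 or a trended prior its adjusted p lay between 0.0275 and 0.0489, and over all alternatives between 0.0275 and 0.54.

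Egr1, a zinc finger transcription factor of the early growth response, was at 8.64 and 7.55 in nuclear opacity, against 6.99 and 5.78 in cortical opacity (1.71 ± 0.54, adjusted p = 0.38). The AP-1 subunits Fos and Jun differed by 1.24 ± 0.66 and 1.09 ± 0.47. Fos was at 8.83 and 8.32 in nuclear opacity, against 8.25 and 6.42 in cortical opacity, so that its 18-week value hardly exceeded its 8-week value. Jun was at 7.01 and 6.85 in nuclear opacity, against 6.55 and 5.12 in cortical opacity. A second transcript cluster for Jun gave a smaller difference of 0.596, under 2-fold. For each of these genes the 10-week array was the lowest of the 4. Atf3, a stress-induced factor of the ATF family, differed by 1.31 and was highest at 12 weeks, at 7.66.

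Genes that damp signalling were part of the same list. Socs3, an inhibitor of cytokine signalling through JAK kinases, was at 7.72 and 6.16 in nuclear opacity, against 5.94 and 4.87 in cortical opacity (1.54 ± 0.70). Lifr, a subunit of the receptor for leukaemia inhibitory factor that signals through those kinases and is in no list, was at 5.51 and 5.68 in nuclear opacity, against 4.31 and 4.71 in cortical opacity. Dusp1, a phosphatase of MAP kinases, differed by 1.04 because its 10-week value of 5.26 lay far under its 8-week value of 7.02. The nuclear arrays, at 7.14 and 7.22, were hardly above the 8-week array. Zfp36, which promotes decay of unstable messenger RNAs, overlapped between the stages, at 8.07 and 6.10 in nuclear opacity and 6.52 and 4.86 in cortical opacity.

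Windows of 250 bases before the start were at hand for 15 of the 22 genes. The CArG box, the site of serum response factor, was found in 3 of them (Egr1, Zfp36 and Klf6), where 1.5% of all windows held it. The cAMP response element TGACGTCA was found in 4 (Jund, Ier2, Dusp1 and Rcan1), where 1.59% of all windows held it. The window of Egr1 is shown with its 2 CArG boxes in capitals (RefSeq, GRCr8).
Egr1, chr18:26736828-26737077, plus strand: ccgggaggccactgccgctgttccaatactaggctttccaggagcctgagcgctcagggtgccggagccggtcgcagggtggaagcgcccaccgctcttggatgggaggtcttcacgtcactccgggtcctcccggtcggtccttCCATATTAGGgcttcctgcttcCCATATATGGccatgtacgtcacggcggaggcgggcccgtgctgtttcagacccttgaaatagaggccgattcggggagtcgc

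The 10-week array, which was low for many immediate early genes, was also the one with low Optc and Fbn1, and the part of the carried-over tissue in these values was not tested.

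**Figure D3:**
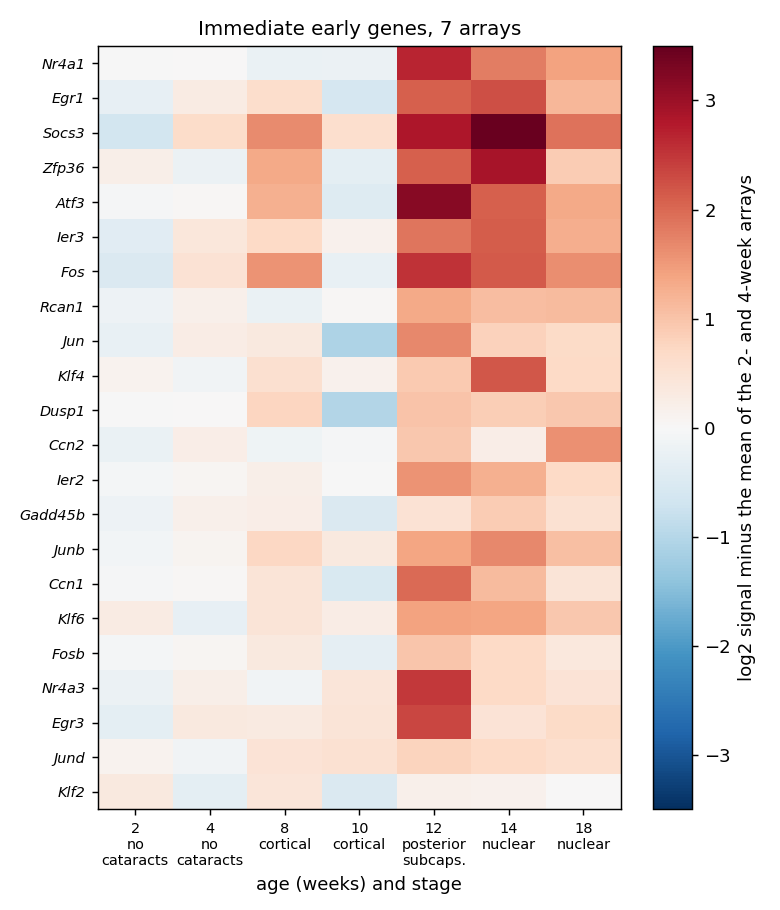
Log2 signal of the 22 tested immediate early genes on the 7 arrays, as the difference from the mean of the 2- and 4-week arrays, with genes ordered by the difference between nuclear and cortical opacity. The 12-, 14- and 18-week columns are mostly red, and the 10-week column holds both blue and pale red genes.

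Secreted proteins and inflammatory genes gave some of the largest and least even differences. Serpina3n, a secreted inhibitor of serine proteases, was at 8.53 and 5.12 in nuclear opacity, against 4.11 and 4.60 in cortical opacity (2.46 ± 1.07, adjusted p = 0.485, limma). Its difference thus rested on the 14-week array. Ccl2, a chemokine that attracts monocytes, was at 7.39 and 6.91 in nuclear opacity, against 5.69 and 4.50 in cortical opacity (2.06 ± 0.89). It was higher still at 12 weeks, at 7.66, and already at 6.001 in the clear lens of 4 weeks. Ccl2 and Cxcl1 (0.88) were the only genes of the immune cell list that were tested, and the other 20 members on the array stayed under 5 on every array. The leucocyte marker Ptprc was at 2.25 and 2.15 in nuclear opacity, against 1.75 and 2.06 in cortical opacity. The macrophage marker Cd68 was at 2.90 and 2.44 in nuclear opacity, against 2.28 and 2.31 in cortical opacity. The summed linear signal of the list was 291.9 to 378.7 in nuclear opacity and 197.1 to 224.9 in cortical opacity. The difference in this sum came from the chemokines Ccl2 and Cxcl1 and not from markers of immune cells such as Ptprc and Cd68. Cxcl1 was at 5.72 and 4.47 in nuclear opacity, against 4.47 and 3.96 in cortical opacity. Ifitm3 (1.08) and Samd9l (1.08), which interferon induces, were above without overlap, but a second cluster for Samd9l was dim and gave 0.03.

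Annexins bind membrane phospholipids in the presence of calcium. Of 6 tested annexins, 5 were higher on both nuclear arrays (83.3%, against 23.0% of all tested genes) and none lower on both, with a median difference of 0.524 (0.384 without the 8-week array and 0.381 without the 14-week array). Anxa5 was at 8.29 and 8.04 in nuclear opacity, against 7.35 and 7.40 in cortical opacity (0.79 ± 0.15), and Anxa1 differed by 0.60 and Anxa2 by 0.57. Of 10 tested calcium-binding proteins and calcium pumps, 4 were above and 3 below. Their S100 members went both ways: S100a10, the partner of annexin A2, differed by 0.39 and S100a11, the partner of annexin A1, by 0.85, while S100a6 differed by -0.57 and S100a4 by -0.17. None of the annexins or calcium-binding proteins passed the test.

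Genes of mesenchymal cells and fibrosis were higher by small amounts. Of 14 tested, both nuclear arrays were above both cortical arrays for 10 (71.4%, against 23.0% of all tested genes) and below for 1, with a median difference of 0.428 (0.327 without the 8-week array and 0.306 without the 18-week array). Cald1, the actin-binding caldesmon, was at 8.04 and 8.03 in nuclear opacity, against 7.47 and 7.48 in cortical opacity (0.56 ± 0.11). Sparc, a secreted protein that binds collagen in basement membranes, was at 10.30 on both nuclear arrays, against 9.70 and 9.83 on the cortical arrays (0.54 ± 0.10). The collagen gene Col1a2 differed by 0.51, Vim, the intermediate filament vimentin of lens epithelium and fibres, by 0.40 and the ligand Tgfb1 by 0.51. The receptor Tgfbr1 went the other way, at 6.04 and 6.41 in nuclear opacity, against 6.86 and 6.88 in cortical opacity (-0.64 ± 0.14). None passed the test, and Ccn2, also an immediate early gene, had its high value at 18 weeks alone (7.36, against 5.99 at 14 weeks).

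Other higher genes belonged to lists on transport, retinoids, growth factors and lipids. Cpm, which encodes the membrane enzyme carboxypeptidase M, was at 8.74 and 8.52 in nuclear opacity, against 7.26 and 7.72 in cortical opacity, and the water channel Aqp5 differed by 0.60. Cyp2b1, a cytochrome P450, was at 5.93 and 5.91 in nuclear opacity, against 4.51 and 5.10 in cortical opacity (1.11 ± 0.21), and Cyp26a1, which degrades retinoic acid, differed by 0.88. Of the 9 tested genes of that list 4 were above (44.4%, against 23.0% of all tested genes) and none below, with a median of 0.209. Chrdl1, a secreted antagonist of bone morphogenetic proteins, was at 7.19 and 7.18 in nuclear opacity, against 5.99 and 6.43 in cortical opacity, whereas the other 8 tested genes of BMP signalling differed by less than 0.25 either way. Among 15 genes of fatty acid synthesis, Thrsp, a regulator of lipogenic enzymes, differed by 0.86, and the median was -0.02. In the neuronal list Kif5a, a kinesin heavy chain, was higher (1.04) and Rbfox3, a neuronal splicing factor, lower (-0.77), and Snap25 and Syt1 stayed under 3.4 on all arrays.

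Among lower genes the gamma-crystallins stood out. These are monomeric structural proteins packed densely in the fibres of the lens nucleus, and their genes are active mainly in early life. All 7 tested members were lower on both nuclear arrays, against 14.6% of all tested genes, with a median difference of -0.871. None passed the test. Cryge was at 6.80 and 2.90 in nuclear opacity, against 10.52 and 9.45 in cortical opacity (-5.13 ± 1.25, adjusted p = 0.315, limma). Crygf was at 7.27 and 3.36 in nuclear opacity, against 10.91 and 9.18 in cortical opacity (-4.73 ± 1.31). Both 18-week values lie under 5, near the bottom of the scale, so that no fold is given. Without the 18-week array the differences were -3.18 for Cryge and -2.77 for Crygf. The 2 nuclear arrays were themselves far apart, with a difference of the 18- minus the 14-week array of -3.90 for Cryge and -3.91 for Crygf. The 12-week array, at 8.49 for Cryge and 8.52 for Crygf, lay between the stages.

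Cryge and Crygf are near-identical copies, and probes may not tell them apart, so that the values may not be independent. Their sequences before the start shared a run of 48 bases, shown here with TATATA, the letters of a TATA box, in capitals (RefSeq, GRCr8).
Cryge, chr9:73926364-73926411, minus strand: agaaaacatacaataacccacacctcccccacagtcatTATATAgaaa
Crygf, chr9:74897890-74897937, plus strand: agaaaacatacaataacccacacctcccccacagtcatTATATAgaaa

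The other gamma-crystallins had smaller differences, several of them near the top of the scale, where a signal can be compressed. Crygb was at 10.94 and 10.58 in nuclear opacity, against 11.99 and 11.50 in cortical opacity (-0.98 ± 0.23). Crygc was at 11.93 and 11.84 in nuclear opacity, against 12.66 and 12.46 in cortical opacity (-0.68 ± 0.14). Crygd differed by -0.47 and Crygn by -0.87, while Crygs, the gamma-crystallin of the adult cortex, differed by -0.10. The alpha- and beta-crystallins that could be named were also near the top of the scale: Cryab differed by -0.03, Cryba1 by -0.10 and Cryba2 by -0.07. The median of these 3 was -0.112 after centring each array on its median and -0.027 after quantile normalization.

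**Figure D4:**
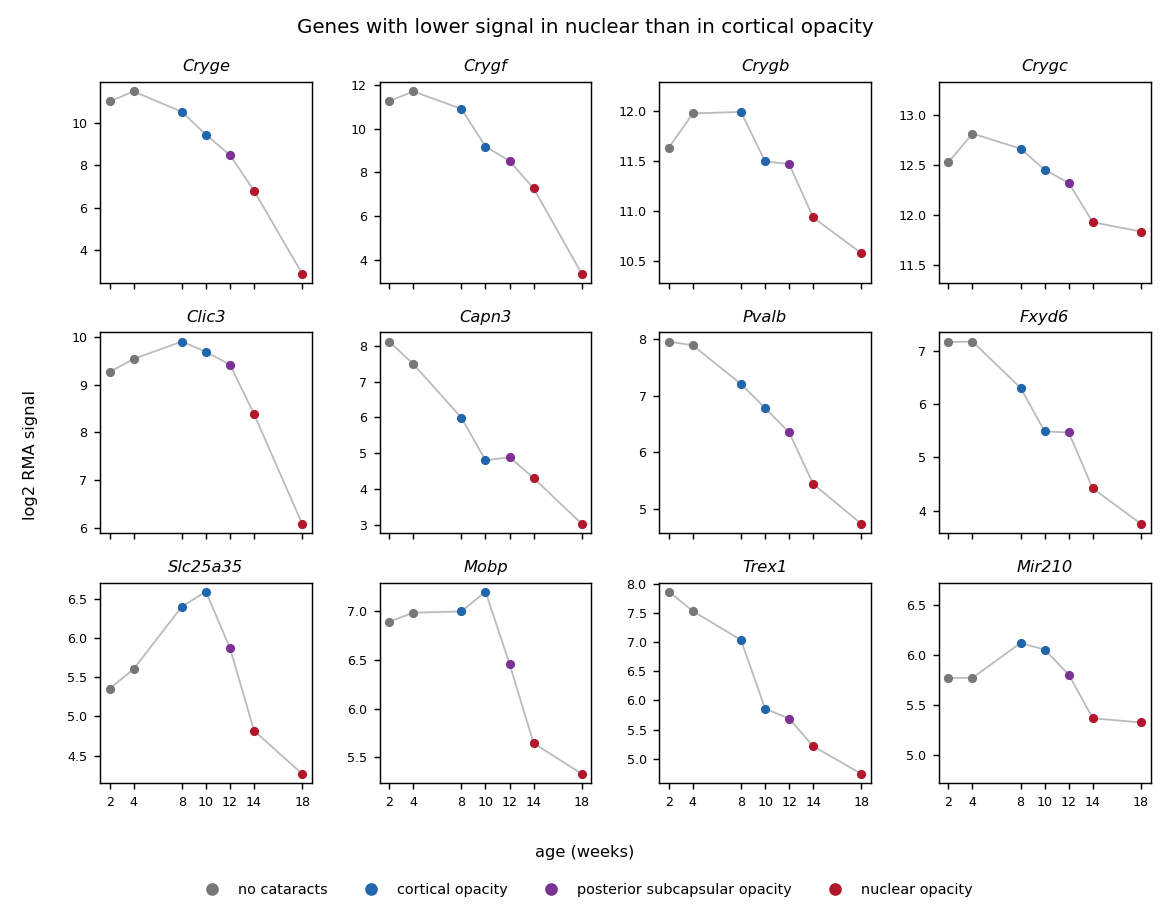
Log2 RMA signal (each vertical axis on its own scale) of 12 genes against age in weeks, 1 array per age, coloured by stage. Cryge and Crygf descended at each age after 4 weeks to 2.90 and 3.36 at 18 weeks, whereas Slc25a35, Mobp and Mir210 were highest in the cortical lenses.

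Calpain 3 was the fibre gene with the next largest difference. Capn3 encodes a calcium-dependent protease, and rodent lenses make a splice form of it, Lp82. It was at 4.31 and 3.03 in nuclear opacity, against 5.99 and 4.80 in cortical opacity (-1.73 ± 0.57, adjusted p = 0.385, limma). It was brightest in the clear lenses, at 8.12 and 7.49. The inhibitor of calpains, Cast, was at 6.80 and 7.00 in nuclear opacity, against 6.64 and 6.33 in cortical opacity, and the small subunit Capns1 differed by 0.31. Capn2, the main calpain of most tissues beside Capn1, differed by 0.07. Of 7 tested genes of this list, 3 were above (42.9%, against 23.0% of all tested genes) and 2 below (28.6%, against 14.6%).

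Of the 19 tested fibre genes, Capn3 included, 7 were above (36.8%, against 23.0% of all tested genes) and 7 below (36.8%, against 14.6%), with a median of 0.02. Mip, the water channel of fibre membranes also called aquaporin 0, differed by -0.27, the connexin Gja3 by -0.17 and the beaded filament protein Bfsp1 by -0.16. Hsf4, the heat shock factor needed for fibre maturation, was at 7.60 and 7.26 in nuclear opacity, against 7.78 and 7.81 in cortical opacity. Dnase2b, the nuclease that degrades DNA in fibres losing their nuclei, overlapped, at 6.77 and 7.84 in nuclear opacity and 8.28 and 7.00 in cortical opacity. Trex1, a DNA exonuclease that guards against DNA sensing in the cytosol, was lower, at 5.22 and 4.74 in nuclear opacity, against 7.04 and 5.86 in cortical opacity (-1.47 ± 0.41). Of 18 lens epithelium genes, 4 were above and 4 below, and the epithelial regulators Pax6 (0.08), Foxe3 (-0.07) and Sox2 (-0.04) overlapped between the stages.

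Proteins that handle ions and calcium included several of the larger lower values. Clic3, a chloride intracellular channel protein, was at 8.38 and 6.08 in nuclear opacity, against 9.91 and 9.69 in cortical opacity (-2.56 ± 0.71). The clear lenses, at 9.27 and 9.55, and the 12-week lens, at 9.43, were close to the cortical lenses. Pvalb, which encodes the calcium buffer parvalbumin, was at 5.44 and 4.74 in nuclear opacity, against 7.21 and 6.78 in cortical opacity (-1.90 ± 0.26, adjusted p = 0.18, limma). Pvalb is also a muscle gene, and the other tested muscle marker, Ckm, differed by -0.07. Fxyd6, a regulator of the sodium pump, was at 4.42 and 3.76 in nuclear opacity, against 6.30 and 5.49 in cortical opacity (-1.81 ± 0.33). Of the 13 genes of sodium pump, chloride and water transport tested, 4 were above and 4 below.

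Slc25a35, a member of the mitochondrial carrier family, and Mobp, named for a myelin protein of oligodendrocytes, had 2 of the smallest p-values among lower genes. Slc25a35 was at 4.82 and 4.27 in nuclear opacity, against 6.40 and 6.59 in cortical opacity (-1.95 ± 0.21, adjusted p = 0.174). Mobp was at 5.65 and 5.33 in nuclear opacity, against 7.00 and 7.20 in cortical opacity (-1.61 ± 0.14, adjusted p = 0.112). With a trended and robust prior both passed, with adjusted p-values of 0.0464 for Slc25a35 and 0.0275 for Mobp (limma), and Emp1 did not (0.143). With the other alternatives neither passed, and the adjusted p reached 0.54 for both. In the clear lenses Slc25a35 was at 5.35 and 5.60, below the cortical lenses.

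Mir210, the gene of a microRNA that hypoxia induces through HIF1, was at 5.37 and 5.33 in nuclear opacity, against 6.12 and 6.05 in cortical opacity (-0.74 ± 0.09, adjusted p = 0.174, limma). Mature strands were not measured on their own. The mature 3p strand is shown with its seed, bases 2 to 8, in capitals (RefSeq, GRCr8).
rno-miR-210-3p, chr1:205755946-205755967, minus strand: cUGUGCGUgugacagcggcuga

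Ddit4, an inhibitor of mTORC1 that hypoxia and other stress induce, was also lower, at 4.52 and 4.57 in nuclear opacity, against 5.32 and 5.45 in cortical opacity (-0.84 ± 0.14). It reached 5 only on the cortical arrays, so that it entered the test only through the arrays in which it was high. Of 15 glycolysis and polyol pathway genes, 6 were below (40.0%, against 14.6% of all tested genes) and 1 above, with a median of -0.05. Eno2, an enolase, was at 7.10 and 7.08 in nuclear opacity, against 7.57 and 7.80 in cortical opacity (-0.59 ± 0.11). No other member differed by more than 0.33 in either direction.

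The remaining lower genes of the smallest p or the largest difference had varied roles. Nt5dc2 was at 8.50 and 8.18 in nuclear opacity, against 10.23 and 9.59 in cortical opacity. Gltp, which moves glycolipids between membranes, was at 7.86 and 7.80 in nuclear opacity, against 9.05 and 8.78 in cortical opacity (-1.09 ± 0.14). Rab25, a GTPase of epithelial endosomes, differed by -1.36, Rnf180, a ubiquitin ligase, by -1.81 and Sh3bgr by -1.61. Isca2, which assembles iron-sulfur clusters in mitochondria, differed by -0.88, the chromatin organizer Satb1 by -0.66, the microfibril protein Mfap2 by -0.68 and Fancd2osl1 by -0.81. R3hdml, by contrast, was higher, at 8.54 and 8.01 in nuclear opacity, against 7.01 and 5.97 in cortical opacity (1.78). None of these passed the test.

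Genes of stress defence did not share a direction. Of 26 glutathione and antioxidant genes, 4 were above and 5 below, with a median of 0.02. Gpx3, a secreted glutathione peroxidase, was at 7.58 and 7.28 in nuclear opacity, against 8.15 and 8.26 in cortical opacity (-0.78 ± 0.13). Cat, the catalase that breaks down hydrogen peroxide, was at 8.76 and 8.88 in nuclear opacity, against 7.93 and 8.57 in cortical opacity. Of 27 genes of the unfolded protein response and amino acid shortage, 6 were above and 4 below, among them Nupr1 (1.40), Ddit4 (-0.84) and the serine synthesis enzyme Psat1 (-0.78). Of 19 heat shock genes, 3 were above and 4 below, with Hspe1, the mitochondrial co-chaperonin, at -0.53 and Clu as the exception noted above. Of 13 cholesterol synthesis genes, 3 were above and 1 below, and of 7 cell cycle genes 2 were above and 2 below, with cyclin D2 (Ccnd2) at -0.62. None of these genes passed the test.

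**Figure D5:**
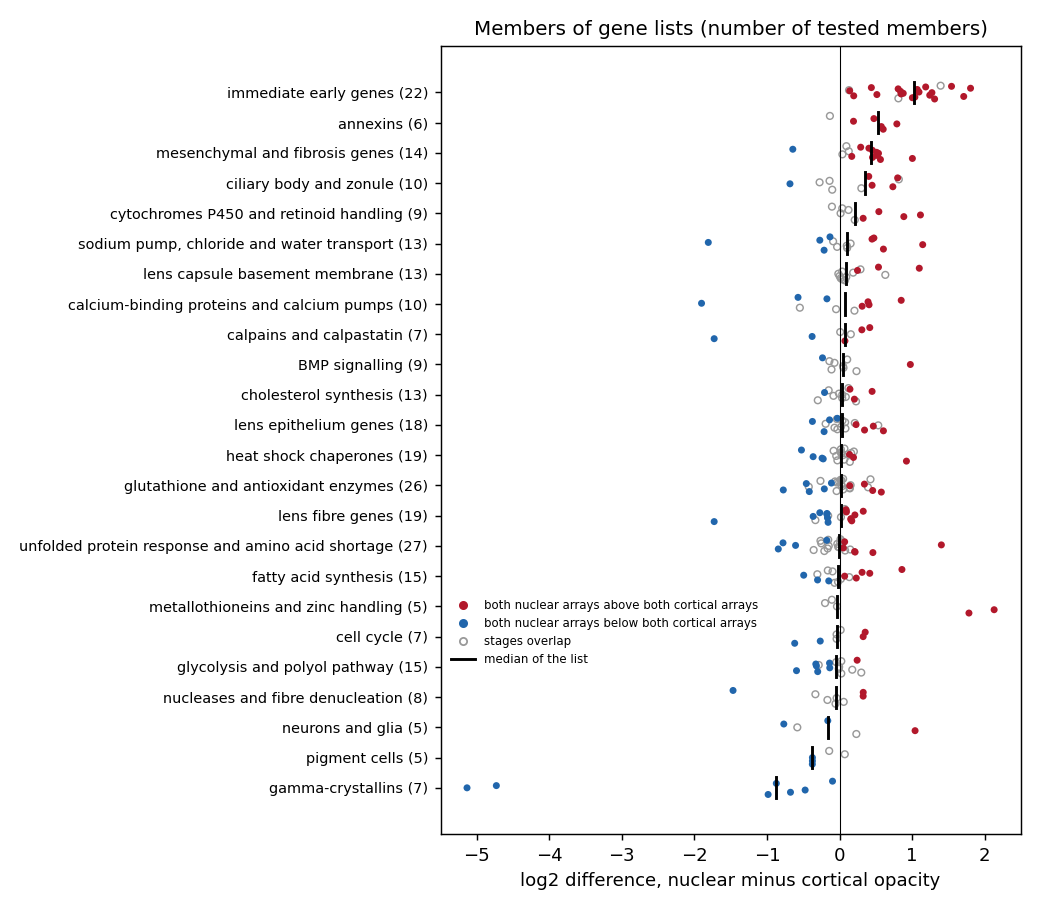
Log2 difference between nuclear and cortical opacity of the tested members of the 24 gene lists with 5 or more of them (number in brackets), ordered by the median of the list (black bar). Filled points are genes whose stages did not overlap; immediate early genes lie to the right of 0 and gamma-crystallins to the left, and most other lists spread to both sides.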

How the data were processed

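For 36685 transcript clusters the authors deposited log2 signals, made by RMA in R. The sources used here do not say which arrays were normalized together. Clusters were named with the array's annotation (18511 had 1 symbol, 575 several, 17599 none), and symbols were updated through the RefSeq genes of GRCr8. For genes with several clusters, the one of highest mean was used, and 12998 genes under 5 on all arrays were left out as dim. Stages were compared with limma 3.58.1 in R 4.3.3 (lmFit, contrasts.fit, eBayes) fitted to the 7 arrays together, each stage with its mean. This left 3 residual degrees of freedom, or 5.37 with moderation. The threshold was 0.05 after Benjamini-Hochberg adjustment. Genes were named if they passed, had 1 of the 12 smallest p-values or of the 10 largest differences without overlap in a direction, or led their list. The genes and the 31 lists were chosen with earlier results of these data known. No set test was run. The pipeline was tested on simulated data. Figures were drawn with matplotlib 3.10.9. The number of arrays limits the precision, and p-values measure only the spread between these arrays.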

Additional observations from a re-analysis of the deposited data

How the results depend on the processing

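Alternatives were run for scaling, floor, choice of cluster, prior and arrays (13 in all). They were not all distinct, since leaving out either clear array gave the same fit as only the 4 arrays. Leaving out a clear array also could not change the counts of genes without overlap. The number of genes that rose was 2 after quantile normalization, 2 after median centring, 0 with no floor, 0 with only the 4 arrays, and 0 to 0 when 1 array was left out. With a floor of 6 it was 1, Nr4a1, since Emp1 was not tested. The number that fell was 2 with a trended and robust prior (Mobp and Slc25a35). Genes above without overlap numbered 715 with a floor of 6 and 2522 with no floor, and 1189 to 2206 when 1 array was left out (2206 without the 8-week and 2193 without the 14-week array). Genes below numbered 1284 after median centring, 488 with a floor of 6 and 2281 with no floor, and 754 to 1827 when 1 array was left out (1827 without the 10-week and 1806 without the 18-week array). With 2-fold besides, leaving out 1 array gave 32 to 55 genes above and 13 to 52 below. The cause of these shifts was not tested, except that the floors change the number of genes tested and 1 array in place of 2 makes an overlap less likely. Of 490 values of the 38 named genes, 475 kept direction and side of the threshold, 9 (Emp1) lost the call, 6 gained it and 0 reversed. The stages of all 38 did not overlap, so that leaving out 1 array could not reverse a direction. All of them but Emp1 had not passed in the main fit, so that keeping the side mostly meant not passing again. Of 325 list medians, 15 moved by more than the spread between arrays. No paired analysis was possible because the labels carry no replicate numbers. Emp1 lies near the bottom of the scale in cortical opacity.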
